A study of Mus musculus with 6 samples.

Results

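H19 and the imprinted gene network are 10 genes, H19, Igf2, Meg3, Rian, Dlk1, Peg3, Mest, Cdkn1c, Plagl1 and Grb10, taken by symbol from the 55327 gene rows of a count table of muscle macrophages. They were chosen by the rise of H19, whose level was higher in knockout than in wild-type libraries of these same data, and the other 9 genes were added to ask whether imprinted genes of muscle precursors moved with it. The rise of H19 is therefore described with no test. The other members carry the adjusted p of a fit over all genes, and their number is no support for the choice.

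The libraries came from mouse macrophages collected by flow sorting from calf muscle on day 3 after hindlimb ischemia, a ligation or block of the leg's blood supply. There were 3 libraries labelled WT and 3 labelled as knockout for Pfkfb3 (KO), a gene that encodes an activator of glycolysis. The strain label of both groups was 129S1/Sv * 129X1/SvJ * C57BL/6 * CBA, and the tamoxifen protocol, 1 mg a day by injection for 5 days and then at least 7 days without, is given for all samples. The design text writes EC after the gene name, the genotype label names no cell type, and the sources used here give no Cre driver and no age or number of animals. Each library was made from 7000 to 50000 cells with a low-input kit that amplifies cDNA.

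Imprinted genes are transcribed mainly from the maternal or the paternal copy, a choice held in place by DNA methylation at control regions. H19 and Igf2 lie side by side, use shared enhancers and are transcribed from opposite parental copies, and Meg3, Rian and Dlk1 share a second imprinted cluster. Many imprinted genes are abundant in embryonic and early postnatal tissue, fall after birth and return in regenerating muscle, where H19 and Igf2 are known from myoblasts and newly formed fibres. Counts per gene do not tell the parental copies apart.

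H19 carries the precursor of miR-675 in its own sequence, so the precursor is shown here with both mature arms in capitals. It lies at chr7:142577064-142577147 on the minus strand, inside the H19 gene, and is taken from RefSeq on GRCm38.p6.

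mir-675 precursor: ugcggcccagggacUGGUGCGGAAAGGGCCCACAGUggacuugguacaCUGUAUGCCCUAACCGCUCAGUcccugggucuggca

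By position, other miRNA genes lay within Igf2 (Mir483), Meg3 (Mir770 and Mir1906-1), Rian (Mir341, Mir1188 and Mir370) and Mest (Mir335). Mature sequences from RefSeq follow, with the seed, bases 2 to 8, in capitals. They are both arms of the H19, Igf2 and Mest miRNAs and, of the Rian miRNA miR-370, the 3p arm alone. They show that each arm has a seed of its own.

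miR-675-5p (H19): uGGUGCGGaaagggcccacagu
miR-675-3p (H19): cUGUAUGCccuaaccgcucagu
miR-483-5p (Igf2): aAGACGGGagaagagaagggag
miR-483-3p (Igf2): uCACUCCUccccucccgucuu
miR-335-5p (Mest): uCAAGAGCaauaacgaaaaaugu
miR-335-3p (Mest): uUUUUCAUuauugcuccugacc
miR-370-3p (Rian): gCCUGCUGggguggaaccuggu

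None of the mature miRNAs hosted by the members shared a seed. The rows Mir675, Mir483, Mir370, Mir341, Mir127, Mir136, Mir431 and Mir433 were at 0 counts in all 6 libraries. Mir335 had 1 count in WT replicate 2, 1 in WT replicate 3 and 0 in the rest. A row of a hairpin does not measure its mature miRNA, so nothing is read from these values about miR-675 or the others.

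Library totals were 18853712 to 29060584 counts. Protein-coding genes held 75.9% to 80.7% of the counts in WT and 46.9% to 58.9% in KO, and a single small-RNA row, Gm23935, held 13.7% to 16.8% in WT and 31.6% to 46.3% in KO. The unit is CPM, the counts set against library sizes scaled with TMM factors, with means ± SD over the 3 libraries of a group and log2 fold changes of KO over WT ± SE. An adjusted p without a tool named beside it is that of edgeR. KO replicates 1 and 2 stood apart from the other 4 libraries in sex-linked genes, with Xist at 154 and 171 CPM against at most 0.465 CPM elsewhere, and Ddx3y at no more than 0.533 CPM against at least 60.5 CPM. Pfkfb3 was at 70.9, 101 and 82.4 CPM in the WT libraries and at 55.5, 59.3 and 160 CPM in KO replicates 1, 2 and 3, so the groups overlapped, with a log2 fold change of 0.11 (adjusted p = 0.892, edgeR). Limma-voom with sample weights gave -0.65 for Pfkfb3 (adjusted p = 0.015). The pan-macrophage markers Csf1r and Cd68 were among the abundant genes of all libraries, at 738 CPM or more and 388 CPM or more.

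H19 (ENSMUSG00000000031, chromosome 7, 142575529 to 142578143, minus strand, GRCm38) is a long non-coding RNA transcribed from the maternal copy. It had 25, 93 and 63 counts in the WT libraries and 1218, 1096 and 1646 in KO replicates 1 to 3. On the CPM scale these were 0.969, 2.55 and 1.85 in WT and 64.9, 78.2 and 106 in KO. All KO libraries were far above all WT libraries, and the lowest KO value stood well clear of the highest WT value. The mean went from 1.79 ± 0.791 to 83.1 ± 21.0 CPM, a ratio of 46.4 and a log2 fold change of 5.51 ± 0.34. Over 15 alternative settings the log2 fold change was 4.89 to 5.85. With KO replicates 1 and 2 both left out it was 5.81, a value of KO replicate 3 alone against WT.

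Igf2 (ENSMUSG00000048583, chromosome 7, 142650766 to 142666816, minus strand) is the paternally transcribed growth factor next to H19. Its counts were few, at 3, 4 and 1 in WT and 13, 14 and 14 in KO, or 0.116, 0.110 and 0.0293 CPM and 0.693, 0.999 and 0.903 CPM. Each KO library was above each WT library. Igf2 rose from 0.0851 ± 0.0484 to 0.865 ± 0.156 CPM, a log2 fold change of 3.28 ± 0.62 (adjusted p = 0.0191, edgeR). The call rests on 8 counts in WT and 41 in KO, and it was lost when WT replicate 2, WT replicate 3, KO replicate 1 or KO replicate 2 was left out (adjusted p up to 0.0896).

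Dlk1, Meg3 and Rian make up the members of the chromosome 12 cluster. Dlk1 (ENSMUSG00000040856, 109452823 to 109463336, plus strand), a membrane protein with EGF-like repeats transcribed from the paternal copy, had 0 counts in all WT libraries and 6, 3 and 2 counts in KO. Set against a floor of 3 counts over the WT group, or 0.0311 CPM, the 0.228 CPM of the KO group was 7.32-fold higher. The floor bounds the WT side alone, and the KO value rests on 11 counts. Meg3 (ENSMUSG00000021268, 109541001 to 109571726, plus strand), a maternally transcribed long non-coding RNA, had 3, 3 and 9 counts in WT and 7, 7 and 9 in KO, which gave 0.116, 0.0822 and 0.264 CPM and 0.373, 0.499 and 0.580 CPM. Neither gene passed the filter on low counts, and neither was tested. Their KO values were all above their WT values, at a depth where a few reads decide the level.

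Rian (ENSMUSG00000097451, chromosome 12, 109603940 to 109661716, plus strand) is a maternally transcribed RNA that hosts small nucleolar RNAs. It had 0, 1 and 11 counts in WT and 16, 21 and 49 in KO, that is 0, 0.0274 and 0.323 CPM against 0.853, 1.5 and 3.16 CPM. The groups did not overlap, but WT replicate 3 held nearly all WT reads and KO replicate 3 was the highest KO library. The log2 fold change was 3.85 ± 0.97 with an adjusted p of 0.05005 (edgeR), just over the threshold of 0.05, so Rian is not counted as changed. It was called in 6 of 14 alternatives, among them the one without WT replicate 3 (log2 fold change 6.42, adjusted p = 0.0267).

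Plagl1 (ENSMUSG00000019817, chromosome 10, 13060504 to 13131694, plus strand) is a paternally transcribed zinc finger factor known to act on other imprinted genes, H19 and Igf2 among them. It had 10, 30 and 25 counts in WT and 69, 62 and 53 in KO, or 0.388, 0.822 and 0.734 CPM and 3.68, 4.42 and 3.42 CPM. The KO libraries lay close together and far above the WT libraries. Plagl1 rose from 0.648 ± 0.230 to 3.84 ± 0.522 CPM, with a log2 fold change of 2.54 ± 0.38 (adjusted p = 0.00858, edgeR). Among the tested members other than H19 only Plagl1 kept its call in all 6 leave-outs of a single library. It was called in 15 of 16 alternatives, the exception being the one without KO replicates 1 and 2 (adjusted p = 0.0793).

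Peg3 (ENSMUSG00000002265, chromosome 7, 6703892 to 6730431, minus strand), another paternally transcribed zinc finger protein, is known as a mark of interstitial progenitor cells in muscle. Its values were 2.71, 0.521 and 1.26 CPM in WT and 6.13, 7.99 and 12.9 CPM in KO. The WT libraries differed among themselves, with replicate 1 high and replicate 2 low, yet all lay under the KO libraries. Peg3 rose from 1.5 ± 1.12 to 9.0 ± 3.49 CPM, a log2 fold change of 2.61 ± 0.54 (adjusted p = 0.0258, edgeR). The call was lost without WT replicate 2, WT replicate 3 or KO replicate 2 (adjusted p up to 0.0830).

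Grb10 (ENSMUSG00000020176, chromosome 11, 11930508 to 12038683, minus strand) encodes an adaptor that dampens insulin and IGF1 receptor signalling, and Cdkn1c (ENSMUSG00000037664, chromosome 7, 143458339 to 143461050, minus strand) the cell cycle inhibitor p57. Grb10 was at 4.03, 1.84 and 1.76 CPM in WT and 9.38, 7.70 and 11.2 CPM in KO. It rose from 2.54 ± 1.29 to 9.41 ± 1.72 CPM, a log2 fold change of 1.90 ± 0.35 (adjusted p = 0.0180, edgeR). No WT library reached the lowest KO library, and the call was lost without WT replicate 2, WT replicate 3, KO replicate 1 or KO replicate 2 (adjusted p up to 0.0745). Cdkn1c was at 1.75, 0.713 and 0.411 CPM in WT and 3.89, 3.50 and 2.97 CPM in KO. Its groups did not overlap either, but WT replicate 1 was well above the other WT libraries and the test was missed, at a log2 fold change of 1.87 ± 0.51 (adjusted p = 0.0617, edgeR). Leaving out WT replicate 1 gave 2.60 for Cdkn1c (adjusted p = 0.0204).

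Mest (ENSMUSG00000051855, chromosome 6, 30723547 to 30748465, plus strand), a paternally transcribed member of the alpha/beta hydrolase fold family, was the tested member whose groups overlapped. It was at 3.06, 2.30 and 1.17 CPM in WT and 2.99, 3.64 and 6.06 CPM in KO. WT replicate 1 lay above KO replicate 1. On the log2 scale KO was higher by 0.96 ± 0.42, which did not pass the test (adjusted p = 0.209, edgeR), and none of 16 alternatives called it. Mest overlaps Copg2 on the opposite strand, a row with 4755 counts over the libraries. The sources used here give no strand setting of the counting, so reads of the overlap cannot be assigned with certainty.

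**Figure D1:**
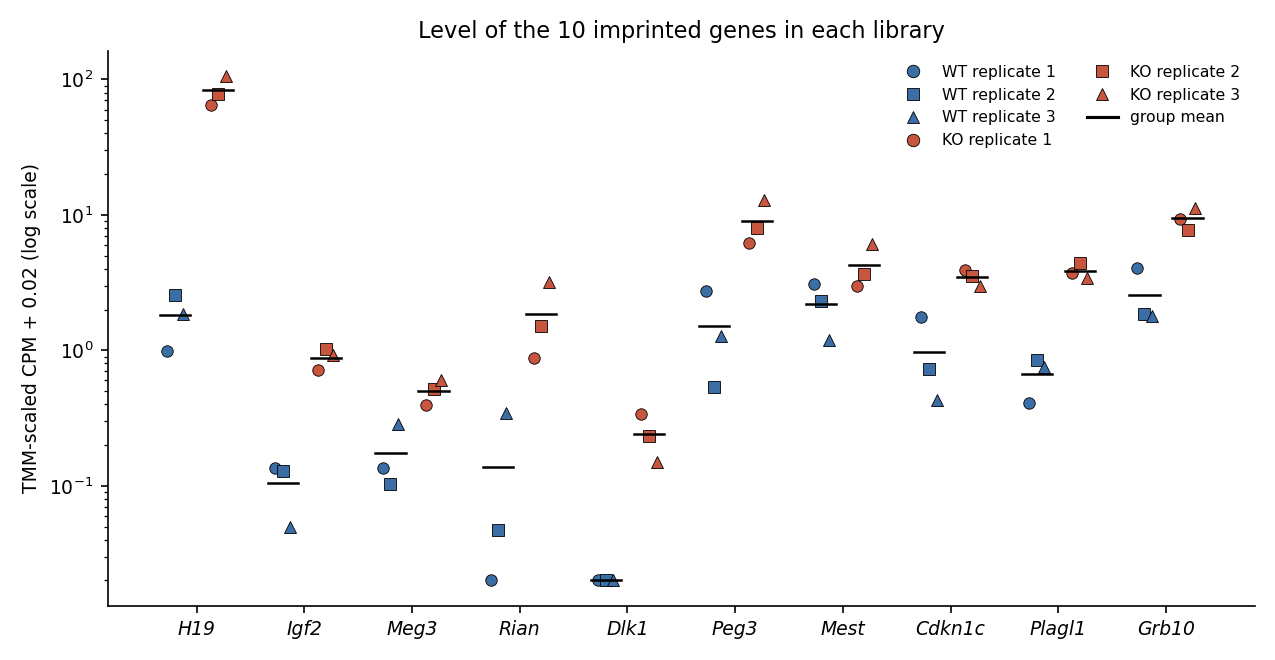
TMM-scaled CPM of the 10 members in the 3 WT and 3 KO libraries, on a log axis with a small offset so that 0 can be drawn, with 1 point per library and bars at the group means. H19, chosen for its rise, goes from 0.969 to 2.55 CPM in WT to 64.9 to 106 CPM in KO, and Mest is the member whose groups overlap.

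Counted together, 8 of the 10 members passed the filter on low counts. Apart from H19, 4 of the 7 tested members rose (Igf2, Peg3, Plagl1 and Grb10), none fell, and Rian, Cdkn1c and Mest did not pass the test. The median log2 fold change of these 7 was 2.54, beside 0.0129 over all 14987 genes tested. Over those genes 995, or 6.64%, changed: 658, or 4.39%, rose and 337, or 2.25%, fell. The groups did not overlap in 6 of the 7 members, all higher in KO, beside 16.8% of all genes tested that lay wholly higher and 14.7% wholly lower in KO. Because the members were chosen with this contrast known, nothing is read from these shares.

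The direction did not depend on the scaling. With library totals and no scaling factor the median of all genes moved to -0.60 and 301 genes rose against 6004 that fell, yet the tested members kept positive log2 fold changes, from 0.34 in Mest to 4.89 in H19. With KO replicates 1 and 2 both left out, which sets KO replicate 3 alone against WT and assumes that it varies like the others, the values were 3.31 for Igf2, 4.59 for Rian, 3.08 for Peg3, 2.32 for Plagl1, 2.09 for Grb10, 1.60 for Cdkn1c and 1.43 for Mest. None of them passed the test in that fit (adjusted p 0.0756 to 0.232), which called 149 genes in all.

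Levels between genes were compared per kb of exon. In KO, H19 was at 33.8 CPM per kb, with 26.4 to 43.1 in its libraries. The next were Cdkn1c at 1.69, Mest at 1.07, Grb10 at 1.04 and Peg3 at 0.676 CPM per kb, and each of these overlapped its neighbour in this order over the libraries. Plagl1 followed at 0.491, Igf2 at 0.151, Rian at 0.101, Dlk1 at 0.0391 and Meg3 at 0.0268 CPM per kb, and among these only Plagl1 and Igf2 were neighbours with no overlap. In WT the level of H19, 0.727 CPM per kb with 0.394 to 1.04 in its libraries, could not be told from that of Mest at 0.553, Cdkn1c at 0.469 or Grb10 at 0.28, whose libraries overlapped it. H19 made up 7.37%, 28.4% and 23.7% of the summed CPM of the members in WT and 69.6%, 72.0% and 72.0% in KO. The other 9 members together came to 12.2, 6.41 and 5.96 CPM in WT and 28.3, 30.5 and 41.3 CPM in KO, so the sum rose from low levels in every KO library with WT replicate 1 the highest of its group.

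Around H19, 14 other genes were tested within 500 kb on each side, and 4 of them rose and none fell. They were Igf2, whose start lies 88.7 kb from that of H19, the fast troponin genes Tnnt3 and Tnni2, and Cd81, a tetraspanin 475 kb away. Mrpl23, a mitochondrial ribosomal protein gene 45.5 kb from H19 on the other side from Igf2, had means of 15.3 ± 0.484 and 13.6 ± 2.03 CPM in WT and KO, a difference of -0.17 on the log2 scale (adjusted p = 0.583, edgeR). Lsp1, a leukocyte actin-binding protein, had 295 ± 111 and 169 ± 23.9 CPM, a difference of -0.80 (adjusted p = 0.0880). The other 8 genes of the window without a call had log2 fold changes of -0.53 to 1.39. The calls of Tnnt3 (log2 fold change 1.84) without WT replicate 2, and of Tnni2 (0.97) without WT replicate 2, WT replicate 3, KO replicate 1 or KO replicate 2, were lost (adjusted p up to 0.0538 and 0.121).

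**Figure D2:**
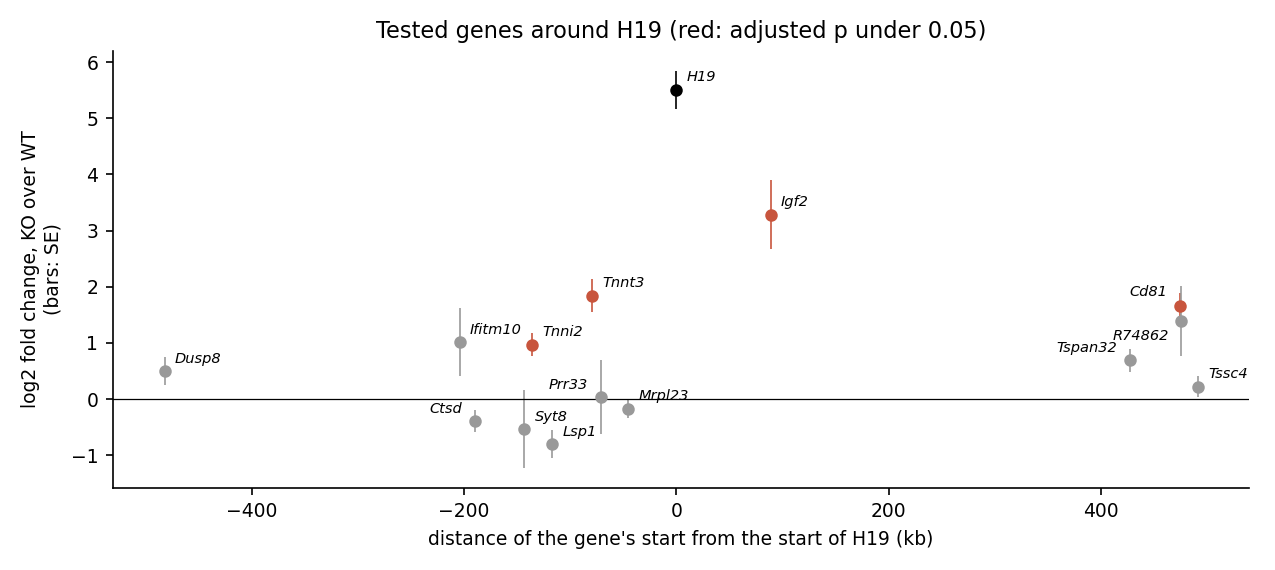
Log2 fold change, KO over WT, with SE, of the tested genes within 500 kb of H19 against the distance of their starts from that of H19. Red points passed the test, grey points did not, and H19, chosen for its rise, is black and untested; Igf2 at 3.28 and Tnnt3 at 1.84 stand above Mrpl23 at -0.17 and Lsp1 at -0.80.

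A list of 26 cluster neighbours of the members, which lie in the same imprinted regions or just beside them, had 10 tested genes. Of these, 3 rose (Cd81, Tnnt3 and Osbpl5) and none fell, with a median log2 fold change of 0.13. Cd81 rose from 18.6 ± 0.510 to 58.6 ± 18.9 CPM (log2 fold change 1.65, adjusted p = 0.00767, edgeR), and it was 69.5 CPM in both KO replicates 1 and 2 and 36.8 CPM in KO replicate 3. With KO replicates 1 and 2 left out its log2 fold change was 0.93 (adjusted p = 0.0631). Osbpl5, an oxysterol-binding protein gene of the imprinted Kcnq1 domain that also holds Cdkn1c, rose from 0.488 ± 0.194 to 2.35 ± 0.257 CPM (log2 fold change 2.23, adjusted p = 0.020), a call lost without WT replicate 2, KO replicate 1 or KO replicate 2 (adjusted p up to 0.0823). Kcnq1ot1, the non-coding RNA that silences that domain on the paternal copy, had means of 41.0 ± 10.5 and 26.2 ± 16.1 CPM, a difference of -0.65 (adjusted p = 0.338). Among the KO libraries, replicates 1 and 2 gave 15.0 and 18.8 CPM and replicate 3 gave 44.7 CPM. Kcnq1ot1 was called lower in 4 of 15 alternatives. Leaving out KO replicate 3 gave -1.28 (adjusted p = 0.0172), and limma-voom gave -1.11 (adjusted p = 0.00151). With every library kept, edgeR gave -1.26 with no scaling factor (adjusted p = 0.0106) and -0.71 with no count filter (adjusted p = 0.0034). Leaving out KO replicates 1 and 2 gave 0.067. Copg2, opposite Mest, had a log2 fold change of 0.03 (adjusted p = 0.921).

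Imprinted genes of other clusters did not pass the test. Of 39 listed genes 38 were in the table and 26 were tested. None was called by edgeR, while DESeq2 called 2 and limma-voom 8. At a p under 0.05 with no adjustment edgeR gave 4. Their median log2 fold change was 0.11, from -0.82 to 1.13. Gnas, which encodes the stimulatory G protein alpha subunit, had means of 16.1 ± 1.62 and 19.8 ± 7.31 CPM in WT and KO, a difference of 0.30 (adjusted p = 0.516). Peg10, a gene derived from a retrotransposon, was at 0.739 ± 0.551 and 1.58 ± 0.695 CPM (1.13, adjusted p = 0.311), Nnat, a small membrane protein gene, at 1.34 ± 0.327 and 1.48 ± 1.04 CPM (0.13, adjusted p = 0.921), and Dcn, the matrix proteoglycan decorin, at 0.846 ± 0.261 and 1.44 ± 0.705 CPM (0.78, adjusted p = 0.371). Ndn, a paternally transcribed gene known from muscle progenitors, did not pass the filter, at 0, 0.0274 and 0.176 CPM in WT and 0.746, 0.143 and 0.838 CPM in KO. That the members and the other imprinted genes differ was not tested, since the members were chosen for this contrast.

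**Figure D3:**
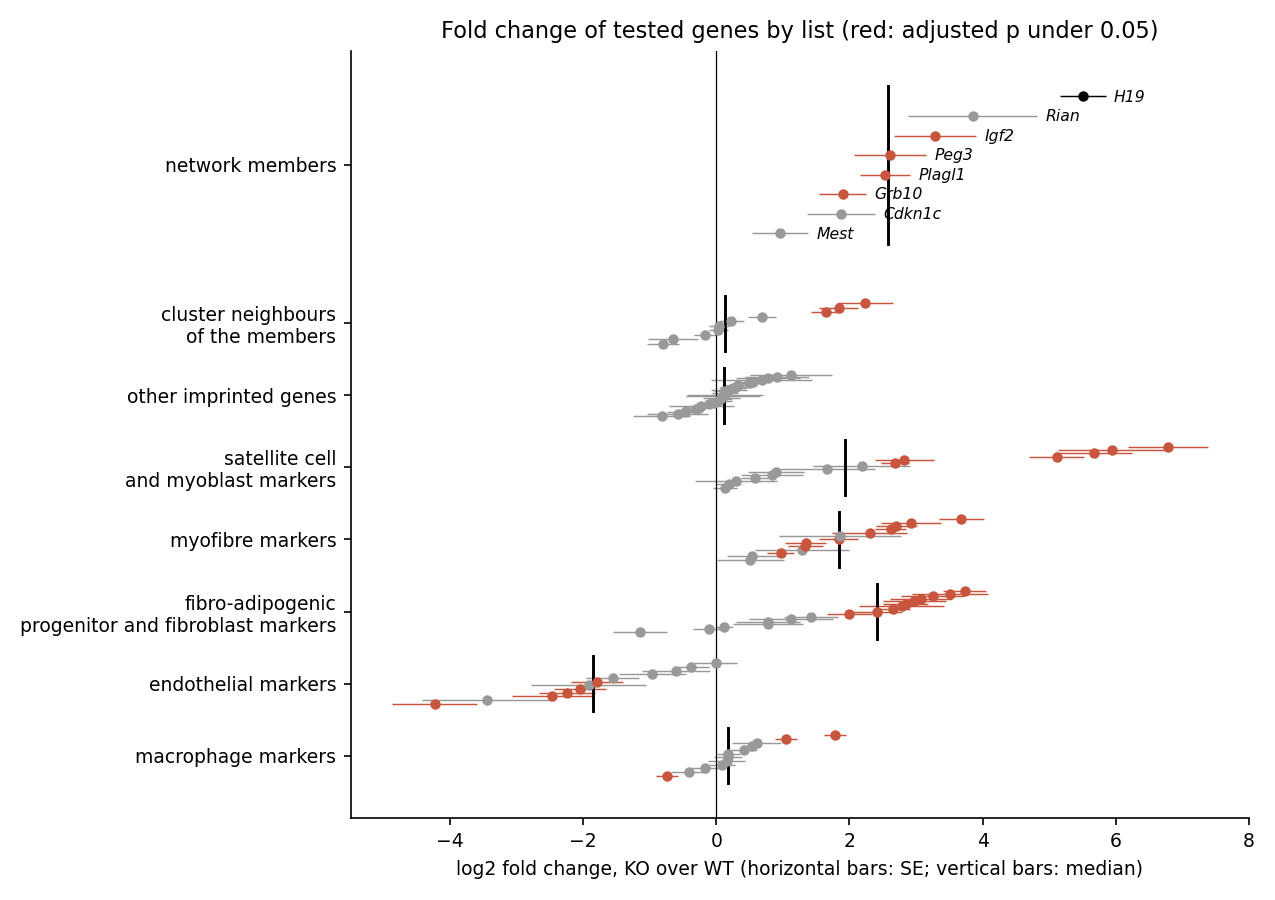
Log2 fold change, KO over WT, of each tested gene by list, with its SE as a horizontal bar and the list's median as a vertical bar. Red points passed the test, grey points did not and H19 is black; the other imprinted genes lie around a median of 0.11, and the medians of the satellite cell, myofibre and fibroblast lists are 1.93, 1.84 and 2.41.

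Partners of Igf2 in growth factor signalling moved in both directions. Of 15 listed genes 13 were tested, 2 rose and 3 fell, with a median log2 fold change of 0.12. Igf1, the growth factor that shares the receptor with Igf2, rose by 1.26 (adjusted p = 0.0135, edgeR), and Irs1, a docking protein of that receptor, by 2.49 (adjusted p = 0.0342). Igf2bp2, an RNA-binding protein of Igf2 mRNA, was lower at -1.11 (adjusted p = 0.0402), as were the binding proteins Igfbp3 at -3.42 (adjusted p = 0.0406) and Igfbp7 at -1.30 (adjusted p = 0.0425). Each of these calls was lost in 2 or more of the 6 leave-outs, that of Igf1 without replicate 2 of either group (adjusted p up to 0.0615), that of Irs1 without WT replicates 2 or 3 or KO replicates 1 or 2 (up to 0.143), that of Igfbp3 in all but the one without WT replicate 3 (up to 0.129), and those of Igf2bp2 and Igfbp7 in all 6 (up to 0.119 and 0.154). The receptor genes Igf1r, at 24.8 ± 9.05 and 26.8 ± 2.83 CPM, and Igf2r, itself imprinted, at 337 ± 80.4 and 355 ± 124 CPM, had log2 fold changes of 0.12 and 0.08 (adjusted p = 0.817 and 0.903).

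Of 14 regulators of imprinted loci 11 were tested, 2 rose and none fell, with a median of -0.10, while with no scaling factor none rose and 7 fell. Dnmt3a, a DNA methyltransferase that sets imprints in germ cells, rose from 151 ± 6.15 to 255 ± 15.4 CPM (log2 fold change 0.76, adjusted p = 0.0102, edgeR), a call lost without WT replicate 2, KO replicate 1 or KO replicate 2 (adjusted p up to 0.0845). Ehmt2, a histone H3 lysine methyltransferase, rose from 111 ± 10.2 to 171 ± 8.05 CPM (0.62, adjusted p = 0.0227). Its call held without KO replicate 3 and was lost in the other 5 leave-outs (up to 0.146), and its log2 fold change was -0.0035 with no scaling factor.

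The genes nearest to H19 in profile over the 6 libraries were, in order, Cd4, Vcam1, Myh3, Lag3 and C4b. Likeness was the root mean square difference of log2(CPM + 1) values centred on each gene's mean, among 10153 other genes with at least 50 counts a library on average, and was 0.521, 0.851, 0.875, 0.929 and 0.995. Cd4, a co-receptor also found on macrophages, was at 1.98, 3.81 and 1.67 CPM in WT and 48.7, 46.5 and 64.5 CPM in KO. Myh3, the embryonic myosin heavy chain of newly formed fibres, was at 0.388, 0.521 and 0.117 CPM in WT and 10.6, 12.8 and 12.7 CPM in KO. A likeness over 6 libraries of 2 groups mostly reflects the size of the group difference. Nearest to Peg3 were Slamf8, Col14a1 and Tpm2, to Plagl1 Enpp4, Tbc1d30 and Pdgfb, to Grb10 Sult1a1, Ephx1 and Igf1, and to Igf2 Reps2, Gna12 and Ggact. The added 1 CPM flattens genes of low level, so nearness to Igf2 does not mean a like fold change. Reps2, Gna12 and Ggact had log2 fold changes of 0.76, 0.87 and 1.19, against 3.28 for Igf2.

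Contractile and differentiation genes of forming muscle fibres were among the markers that rose. Of 26 satellite cell and myoblast markers 14 were tested, 6 rose and none fell, with a median log2 fold change of 1.93. Those that rose were the fetal contractile genes Myh3 (5.11, adjusted p = 0.000851, edgeR), Myh8 (6.79, adjusted p = 0.00120), Actc1 (5.67, adjusted p = 0.00191) and Tnnt2 (5.95, adjusted p = 0.00673), the intermediate filament gene Des (2.68, adjusted p = 0.000786) and the differentiation factor Myog (2.83, adjusted p = 0.0102). All 6 kept their calls in every leave-out of a single library. The genes that define the precursor itself did not pass: Pax7, the factor of satellite cells, was at 0.427, 0.0548 and 0.235 CPM in WT and 0.533, 1.07 and 1.61 CPM in KO (2.19, adjusted p = 0.110), and Myod1 at 0.698, 0.466 and 0.411 CPM and 0.533, 0.214 and 1.16 CPM (0.29, adjusted p = 0.822). Myf5 was untested, at no more than 0.645 CPM in any library, and Calcr was at 0 in all 6.

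Summed over the full satellite cell and myoblast list, the level was 334 to 414 CPM in WT and 523 to 579 CPM in KO (p = 0.1 by a two-sided exact permutation test, which cannot give a smaller p with 3 libraries a group). Its log2 ratio of 0.50 was -0.10 with no scaling factor. Dag1, Sdc4 and Mef2c, which macrophages and many other cells also express, made up most of it. These 3 genes, with WT means of 50 CPM or more, were left out by a cut set after values were seen. The rest summed to 8.65, 6.39 and 5.40 CPM in WT and 47.3, 56.4 and 61.9 CPM in KO, a ratio of 8.11. Because the cut used WT levels, nothing is read from this ratio. Single tested genes of the list had log2 fold changes of 0.13 to 6.79, beside 5.51 for H19. The myofibre markers summed to 21.3 to 29.4 CPM in WT and 77.6 to 99.5 CPM in KO, and 9 of their 13 tested genes rose and none fell, such as Acta1 (2.62), Myl1 (3.68) and Mylpf (2.70). In bulk libraries more cells of a type and more RNA per cell cannot be told apart, and the part of muscle RNA in the levels of H19 and the other members was not tested.

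Matrix genes of fibroblasts were also among the markers that rose. Of 20 fibro-adipogenic progenitor and fibroblast markers 17 were tested, 10 rose and none fell, with a median log2 fold change of 2.41 and a range of -1.14 to 3.73. Postn, a matrix protein, rose by 3.73 (adjusted p = 0.00120, edgeR), Bgn, the proteoglycan biglycan, by 2.65 (adjusted p = 0.00178), and Col1a1, a chain of collagen I, by 3.25, from 2.95, 6.00 and 13.9 CPM in WT to 79.1, 84.0 and 56.2 CPM in KO (adjusted p = 0.00836). Pdgfra, the receptor that defines fibro-adipogenic progenitors, was at 0.504, 0.164 and 0.352 CPM in WT and 0.746, 1.14 and 0.322 CPM in KO (1.12, adjusted p = 0.325). Limma-voom called Pdgfra higher, at 2.13 (adjusted p = 0.00698), and no other alternative called it. The whole list summed to 571 to 731 CPM in WT and 627 to 915 CPM in KO, groups that overlapped (p = 0.3 by the same exact permutation test), and its log2 ratio of 0.33 was -0.29 with no scaling factor. Gsn and Tcf4 were left out by the same cut on WT means, again set after values were seen. The rest summed to 20.6, 33.9 and 61.9 CPM in WT and 245, 256 and 199 CPM in KO. KO replicate 3 had the lowest of these KO sums and the highest H19, and the part of fibroblast RNA in the members' levels was not tested.

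Markers of other cells differed less or the other way. Of 12 endothelial markers, all tested, 5 fell and none rose, with a median of -1.85, and the sum went from 74.4 to 125 CPM in WT to 27.2 to 53.0 CPM in KO. Robo4, an endothelial guidance receptor, fell by 4.23 on the log2 scale (adjusted p = 0.00971, edgeR), a call lost without KO replicate 2 (adjusted p = 0.0522). Of 8 mural cell markers tested 2 rose, one of them Des, of 3 Schwann cell markers 1 rose, and of 4 tenocyte, 3 neutrophil and 1 lymphocyte marker tested none was called by edgeR. Without adjustment these last lists had 1 gene each at p under 0.05, as many as DESeq2 called, and limma-voom called 2, 1 and 1. Ly6g, a neutrophil marker, was at 0 in all libraries. Of 12 macrophage markers, all tested, 2 rose (Csf1r by 1.05 and C1qa by 1.79) and 1 fell (Cd68, by 0.74 on the log2 scale), with a median of 0.18. Csf1r lost its call without WT replicate 2, KO replicate 1 or KO replicate 2 (adjusted p up to 0.0751), Cd68 in every leave-out except the one of KO replicate 3 (up to 0.133), and C1qa in none.

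**Figure D4:**
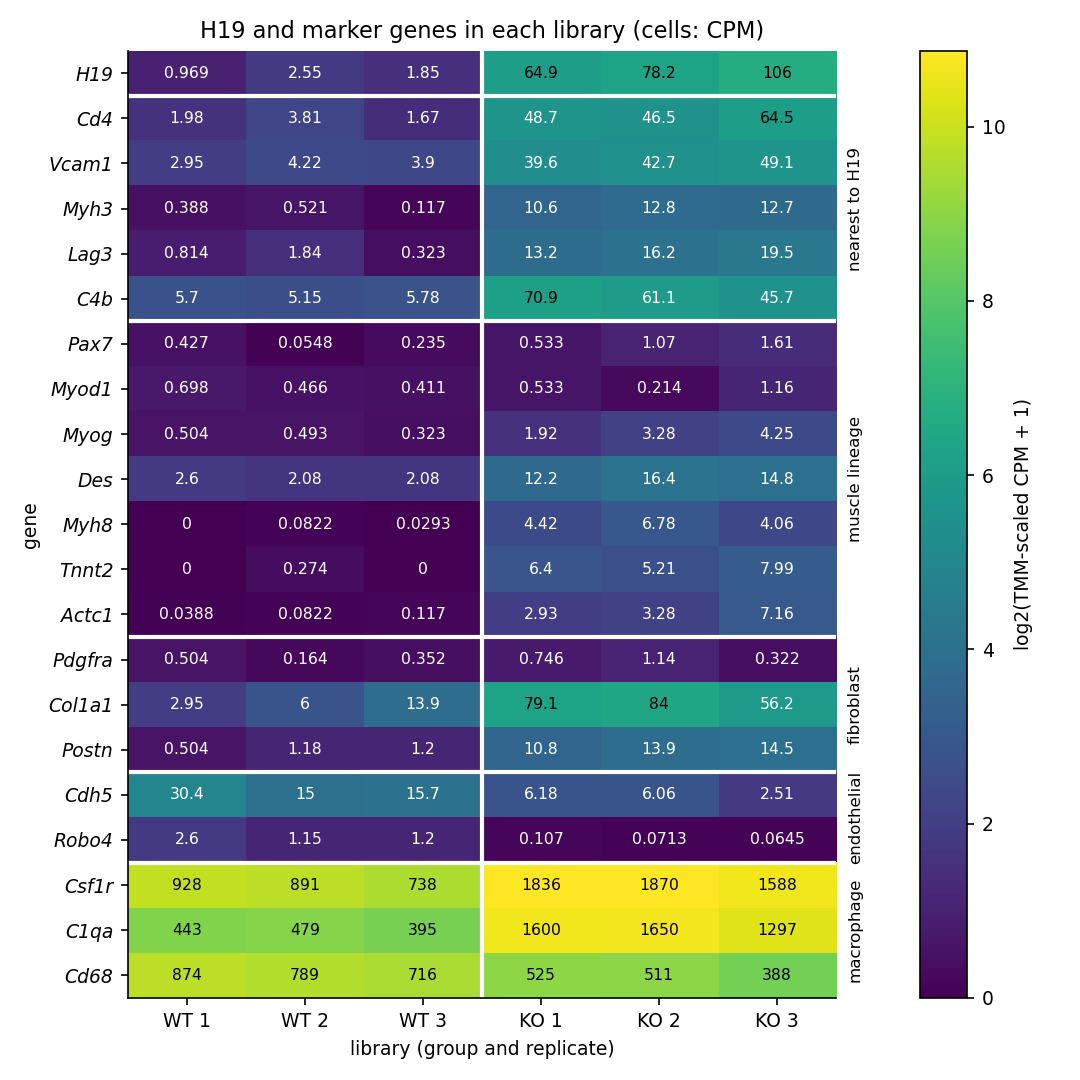
TMM-scaled CPM of H19, its 5 nearest genes and marker genes in each library, with the value printed in each cell and the colour on a log2(CPM + 1) scale. H19 and Myh3 are low in all WT and high in all KO libraries, Pax7, Myod1 and Pdgfra are at no more than 1.61 CPM in any library, and Csf1r is at 738 CPM or more throughout.

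Promoter sequences, from 250 bases before to 50 after a transcript start, were matched in RefSeq (GRCm38.p6) for 8 of the 10 members, with 15 windows among them, and not for H19 and Cdkn1c. The windows were searched for GGGGCCCC, a GC-rich core of sites that Plagl1 is known to bind, and for CAGCTG, an E-box form bound by myogenic factors. Both motifs read the same on the 2 strands. GGGGCCCC occurred in the Peg3 window alone, shown with the motif in capitals (chr7:6730370-6730669, minus strand). The Plagl1 window, printed because Plagl1 kept its call in all 6 leave-outs (chr10:13090582-13090881, plus strand), held neither motif and is in lower case.

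Peg3 promoter: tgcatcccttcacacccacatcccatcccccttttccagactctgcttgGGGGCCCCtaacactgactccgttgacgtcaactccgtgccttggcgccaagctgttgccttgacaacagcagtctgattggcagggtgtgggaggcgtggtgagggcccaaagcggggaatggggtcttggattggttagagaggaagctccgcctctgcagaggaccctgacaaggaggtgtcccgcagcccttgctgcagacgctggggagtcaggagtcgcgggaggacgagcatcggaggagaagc
Plagl1 promoter: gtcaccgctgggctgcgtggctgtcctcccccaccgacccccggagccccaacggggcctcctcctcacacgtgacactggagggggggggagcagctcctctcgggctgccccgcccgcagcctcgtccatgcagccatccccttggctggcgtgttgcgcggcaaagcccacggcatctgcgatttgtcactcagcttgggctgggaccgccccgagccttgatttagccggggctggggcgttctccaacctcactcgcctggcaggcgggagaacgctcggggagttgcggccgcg

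Of 32851 promoter windows of this length in the RefSeq table, 354, or 1.08%, held GGGGCCCC. CAGCTG was in 1 of the 3 Mest windows and in no other window of a member, and 16.3% of all windows held it. The number of CpG sites, where DNA methylation can mark a parental copy, was 45 in the richest Grb10 window, 26 in Plagl1, 13 in Peg3 and 0 in Rian, beside a median of 7 over all windows. Methylation was not measured in these libraries, and a motif match is a description of the sequence only.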

How the data were processed

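The authors deposited 1 table of raw read counts, whole numbers per gene, with a column for each of the 6 libraries and 55353 rows. Per the submitters' processing notes the reads were processed on GRCm38 with HISAT2, featureCounts, DESeq, FastQC and Trim Galore, listed without version or role. Annotation and strand setting: not given in the sources used here. In 26 rows the gene name had become a date. They held 0.0913% to 0.163% of a library's counts and were left out. Symbols of 53256 rows matched GENCODE M21, the source of gene IDs, positions and exonic lengths.

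From these counts, libraries were scaled with TMM factors (1.23 to 1.26 in WT, 0.713 to 0.892 in KO). Genes were kept by the default filterByExpr of edgeR 4.0.16 (R 4.3.3) on the group, and KO was compared with WT by the two-sided quasi-likelihood test over all 6 libraries without covariates. A gene changed where its Benjamini-Hochberg adjusted p over the 14987 genes tested was under 0.05. The scripts were tested on simulated data. SD is over the libraries of a group. SE is the size of the log2 fold change divided by the square root of the quasi-likelihood F statistic. The labels leave unsaid whether each library is a separate animal. A p-value thus measures the spread among libraries, which may be technical.

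Alternatives were DESeq2 1.42.0 (size factors, and its own test), no scaling factor, protein-coding genes alone, no count filter, a stricter filter (3 or more libraries at a CPM of 1 or more), each single library left out, KO replicates 1 and 2 left out or added up, a replicate block, and limma 3.58.1 (voom with sample weights). The members, the lists and the tests were chosen with earlier results of these data known. The rule for named genes took all members, the 5 genes nearest to H19 and the 3 nearest to each other called member, up to 3 called genes per direction and list by smallest p, and a fixed set (Pfkfb3, Igf1, Igf1r, Igf2r, Pax7, Myod1, Myf5, Des, Pdgfra, Col1a1, Dcn, Gnas, Ndn, Peg10, Nnat and miRNA rows of the members' clusters). Genes named outside it (Tnni2, Mrpl23, Lsp1, Copg2, Kcnq1ot1, Calcr, Ly6g, Dag1, Sdc4, Mef2c, Gsn, Tcf4, Xist, Ddx3y and Gm23935) were chosen for their position or after their values were seen.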

Additional observations from a re-analysis of the deposited data

How the results depend on the processing

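The number of changed genes, 995, was 1957 with no count filter, 6305 with no scaling factor, 1870 by the DESeq2 test, 4850 by limma-voom, 282 with KO replicates 1 and 2 added up and 149 with both left out. The members called besides H19, 4 in the report, were 5 with DESeq2 size factors, no scaling factor or protein-coding genes alone, 6 with no filter, DESeq2 or limma-voom, 3 with the stricter filter, 2 with KO replicates 1 and 2 added up and 0 with both left out. Leaving out a single library gave 189 to 1652 changed genes and 1 to 5 called members (1 without WT replicate 2 or KO replicate 2, 2 without WT replicate 3 or KO replicate 1). H19, Rian and Meg3 could not be fitted among protein-coding genes, and Igf2, Rian, Meg3 and Dlk1 did not reach the stricter filter.

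Counts of called genes by list moved as follows. Cluster neighbours had 8 with no scaling factor (3 higher, 5 lower), 6 with no filter, 5 by DESeq2, 6 by limma-voom and 1 with KO replicates 1 and 2 left out. Other imprinted genes had 9 with no scaling factor (all lower), 2 with no filter (both higher), 2 by DESeq2 (1 each way) and 8 by limma-voom (5 higher, 3 lower). With KO replicates 1 and 2 left out and added up, IGF partners had 0 and 1, regulators 0 and 0, myofibre markers 4 and 5, mural markers 1 and 1, Schwann markers 0 and 0, endothelial markers 0 and 2, and macrophage markers 1 and 1, and fibroblast markers had 2 with both left out. Regulators, with 2 higher in the report, had 7 with no scaling factor, all lower, and 4 by limma-voom (3 higher, 1 lower), and endothelial markers had 10 with no scaling factor, all lower. Limma-voom called 10 satellite, 5 mural, 5 macrophage and 2 tenocyte markers, and 1 in the neutrophil and lymphocyte lists. Tenocyte markers had 1 with protein-coding genes alone, no filter or DESeq2, neutrophil markers 1 in these and with no scaling factor, and lymphocyte markers 1 by DESeq2. Over the single leave-outs the ranges were 0 to 3 (IGF partners), 0 to 1 (Schwann), 0 to 0 (lymphocyte and neutrophil), 1 to 4 (neighbours), 0 to 5 (endothelial), 5 to 11 (fibroblast), 1 to 4 (macrophage), 1 to 3 (mural), 4 to 10 (myofibre), 0 to 2 (other imprinted and regulators), 6 to 7 (satellite) and 0 to 1 (tenocyte).

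With no scaling factor the log2 ratio of summed CPM turned from 0.50 to -0.10 for satellite markers and from 0.33 to -0.29 for fibroblast markers, with single leave-outs giving 0.41 to 0.56 and 0.24 to 0.49. With no scaling factor these log2 fold changes also turned: Pfkfb3 -0.50, Igf1r -0.50, Igf2r -0.54, Copg2 -0.59, Ehmt2 -0.0035, Gnas -0.29, Nnat -0.50 and Myod1 -0.29. With KO replicates 1 and 2 left out Igf2r was -0.72, Copg2 -0.22, Kcnq1ot1 0.067 and Pdgfra -0.11, and with them added up Igf2r was -0.084 and Copg2 -0.039. Limma-voom gave -0.65 for Pfkfb3, -0.30 for Nnat and -0.38 for Myod1, and no filter -0.014 for Copg2. Of these, Pfkfb3 by limma-voom (adjusted p = 0.015) and Copg2 with no scaling factor (adjusted p = 0.0203, edgeR) passed, both as lower in KO. The rest did not pass. Over the single leave-outs the values went from -0.56 to 0.33 in Pfkfb3, -0.041 to 0.45 in Igf1r, -0.098 to 0.35 in Igf2r, -0.095 to 0.13 in Copg2, -0.51 to 0.56 in Nnat and -0.42 to 0.65 in Myod1. None of these genes passed the main test except Ehmt2. The causes were not tested.

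With the replicate block, 267 genes changed, 2 members besides H19 were called (Plagl1 and Grb10), and the lists had 1 (neighbours), 1 (IGF partners), 0 (regulators), 4 (myofibre), 6 (fibroblast), 1 (mural), 0 (Schwann) and 3 (endothelial) called genes. Under it Pfkfb3 was -0.059 and Nnat -0.063. The replicate numbers were given in the order of the records and are not known to pair the samples. Same-numbered WT and KO libraries deviated from their group means with correlations of -0.02, -0.13 and -0.24 over 10967 genes. With 3 libraries a group these correlations cannot show whether samples were paired.

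Depth limits the low members most: Igf2, Rian, Meg3 and Dlk1 had at most 49 counts in any library.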
